A study of Mus musculus with 6 samples.

Results

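The Schlafen genes are a mouse gene family first described in thymocytes and named after the German verb for sleeping, because expression of the founding member stopped T cells from growing. The members treated here are Slfn1, Slfn2, Slfn3, Slfn4, Slfn5, Slfn8 and Slfn9, taken from the deposited table by their symbols, which gave 7 of the 24062 genes listed. The rule matches symbols and uses no measured value, though the family was picked with earlier results of these data known. Slfn1 did not reach the mean of 10 reads per library required for testing, so 6 members were tested among 13734 genes.

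Schlafen proteins share an N-terminal core, and the longer members carry in addition a C-terminal part related to helicases. Many family members are induced by type I interferon in immune cells. Several are linked to the control of transfer RNA and of cell growth. Slfn2 binds transfer RNA and protects it from cleavage, and mice with defective Slfn2 have T cells and monocytes that do not stay quiescent.

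The libraries were made from hematopoietic stem cells (HSC), the bone marrow cells from which blood is renewed, and mice of 2 genotypes were used. Control mice carried floxed Nr4a1 alleles and no functional Nr4a3 (labelled Nr4a1 fl/fl and Nr4a3-/-), and CDKO mice carried the same alleles together with a construct labelled Rosa26-ERt2. By background such a construct, placed at the broadly active Rosa26 locus, provides a Cre recombinase that tamoxifen switches on, so that floxed Nr4a1 is removed in many cell types and not in HSC alone. Animals of both groups received tamoxifen at 120 mg per kg on 4 days and cells were collected on day 5, with 3 to 5 mice pooled for each of the 3 libraries in a group. The series text gives neither the age of the mice nor the markers used in the sort, and it names no batch. Since Nr4a3 is missing in control and CDKO mice alike and only CDKO mice carry the construct, loss of Nr4a1 and presence of the construct cannot be told apart. In sorted pools, a smaller share of expressing cells and less RNA in each cell cannot be told apart either.

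Library totals ran from 32863805 to 42772261 counted reads, so 3 reads, the level that a count of 0 allows, corresponded to 0.0701 to 0.0913 CPM (reads of a gene scaled to a common library total) by library, for counting error only. Nr4a1 stood at 13.8 ± 1.18 CPM in the control libraries against 9.13 ± 0.623 CPM in the CDKO ones (SD, n = 3; limma adjusted p = 0.00204), and Nr4a3 had 0 reads in every library. All 9 HSC markers listed were detected, with a summed level of 4645 to 4888 CPM in control and 4138 to 4343 CPM in CDKO libraries, and 3 of them rose while 5 fell. Differences were very common in this comparison, with 66.2% of all tested genes past the threshold (limma, adjusted p under 0.05) in either direction, so a count of members is read below against the share of all genes in the same direction.

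The family sits in 1 cluster of 335.4 kb on chromosome 11 (mm10, 82951349 to 83286726, GENCODE M21 gene models). The coding regions fall into 3 sizes. Slfn1 and Slfn2 are short, with 1011 and 1134 coding bases, Slfn3 and Slfn4 are intermediate, with 1920 and 1806, and Slfn5, Slfn8 and Slfn9 are long, with 2652, 2730 and 2730. Slfn8 and Slfn9 share 92.7% of their aligned coding bases, and Slfn3 and Slfn4 also share 92.7%, while the remaining pairs of members share between 63.2% and 77.0%.

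Because these pairs are so alike, part of the reads could have been assigned to the wrong copy or left out. The share of 50-base stretches of a gene's transcripts that also occur in another gene was 14.6% for Slfn8, 11.9% for Slfn9, 15.99% for Slfn3, 11.3% for Slfn4, 11.1% for Slfn5, 4.27% for Slfn2 and 0.61% for Slfn1. For Slfn8, 9.30% of its stretches occur in Slfn9 and 10.1% in the neighbouring copy Slfn10-ps. The read length and the handling of reads with several matches are not given in the sources used here, so the values of Slfn8, Slfn9, Slfn3 and Slfn4 carry this uncertainty. Of the 6326 exon bases of Slfn5, 559 are also covered by exons of Slfn5os on the opposite strand. Slfn5os itself had 0 reads in 5 libraries and 4 reads in CDKO replicate 3. The amplification kit does not mark strand, so reads from that overlap cannot be told apart by strand.

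The promoters of the members are shown first because their letters separate the long members Slfn5, Slfn8 and Slfn9 from the other members. RefSeq promoter windows (GRCm38.p6, 250 bases before to 50 bases after the start) were found for all 7 members. Each was scanned on both strands for the core of the interferon-stimulated response element, the site bound by interferon regulatory factors and by the complex that type I interferon activates, searched as 2 copies of GAAA with any 2 bases between them (TTTC on the other strand). A match was present in Slfn5, Slfn8 and Slfn9 and in none of the windows of Slfn1, Slfn2, Slfn3 and Slfn4, while 3.44% of all 32851 promoter windows hold one. No match was found for Slfn14, a long gene of the same cluster outside the members (2697 coding bases), so the core does not go with length throughout the cluster. The stretches around the 3 matches are printed 5′ to 3′ in the direction of transcription, with the match in capitals.
Slfn5, chr11:82951931-82951972, plus strand: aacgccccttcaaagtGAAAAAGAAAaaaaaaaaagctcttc
Slfn8, chr11:83020833-83020874, minus strand: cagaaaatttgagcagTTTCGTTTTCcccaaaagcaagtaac
Slfn9, chr11:82991850-82991891, minus strand: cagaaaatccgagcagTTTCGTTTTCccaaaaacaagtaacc

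In Slfn8 and Slfn9 the same 10 letters begin 48 and 45 bases upstream of the start, and the 250 upstream bases of these genes are identical at 206 of 242 aligned positions (85.1%). In Slfn5 the match begins 155 bases upstream and runs into a stretch of A, so it differs in letters and place from the other pair. The RefSeq start of Slfn5 lies downstream of the first base of its GENCODE gene model, and of the RefSeq starts of Slfn8 the most upstream was used.

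A second set of letters was noticed only after the promoters had been read. The 8 letters ACTTCCTG (CAGGAAGT on the other strand), which hold the GGAA core bound by ETS factors such as PU.1, occur in Slfn1, Slfn2, Slfn3 and Slfn4 and not in the windows of Slfn5, Slfn8 or Slfn9. They occur in 3.33% of all promoter windows, and were not found for Slfn14. The stretches below are printed in the direction of transcription, with these letters in capitals, to show how alike the 4 sites are.
Slfn1, chr11:83116734-83116765, plus strand: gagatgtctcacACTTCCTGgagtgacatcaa
Slfn2, chr11:83065045-83065076, plus strand: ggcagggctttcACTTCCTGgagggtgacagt
Slfn3, chr11:83191258-83191307, plus strand: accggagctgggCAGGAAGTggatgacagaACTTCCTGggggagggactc
Slfn4, chr11:83175101-83175132, plus strand: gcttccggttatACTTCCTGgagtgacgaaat

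The matches begin 74 bases upstream of the start in Slfn1, 55 in Slfn2, 60 and 42 in Slfn3 and 73 in Slfn4. Neither the monomer element of NR4A receptors, AAAGGTCA, nor the core of the gamma-activated site, TTCNNNGAA, was found in the window of any member, where 1.51% and 8.30% of all windows hold them. These are matches of letters, and binding was not measured here.

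**Figure D1:**
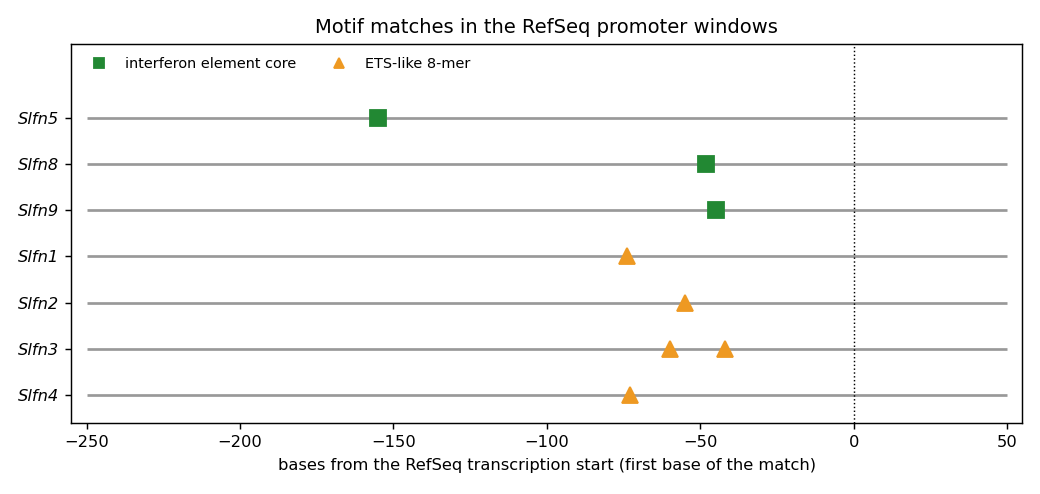
Position of each match in the RefSeq promoter window of the 7 members, with bases from the transcription start on the horizontal axis and 1 line per gene. Squares mark the interferon element core and triangles the ETS-like 8 letters, which were chosen after these promoters had been read. Slfn5, Slfn8 and Slfn9 hold squares only, and Slfn1 to Slfn4 hold triangles only.

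Expression of the long members Slfn5, Slfn8 and Slfn9 and of the intermediate member Slfn3 was higher in CDKO HSC. The rise was largest for Slfn5. Of the 6 members tested, 4 rose (Slfn5, Slfn9, Slfn8 and Slfn3), 0 fell, and Slfn4 and Slfn2 did not pass. Among all genes tested, 31.1% rose and 35.2% fell (limma, adjusted p under 0.05). For the same 4 members every CDKO library lay above every control library, and for none did every CDKO library lie below. Among all genes tested, 33.4% had all CDKO libraries above all control libraries, 37.2% had all below, and 70.6% had groups that did not overlap in either direction. With edgeR on the reads 4 members rose against 31.2% of all genes, with DESeq2 4 against 31.4%, and in the authors' deposited values 4 members rose against 31.6%.

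Slfn5 is a long member that is induced by type I interferon in several cell types and acts in the nucleus. It was measured at 39.96, 47.0 and 54.6 CPM in the control libraries and at 151, 129 and 139 CPM in the CDKO libraries. The groups were far apart, with the lowest CDKO library above the highest control library. Slfn5 rose 2.96-fold in mean CPM, with a log2 difference of 1.56 (SE 0.10, 95% interval 1.34 to 1.77, limma adjusted p = 3.72e-07), and was higher in 3 of 3 CDKO libraries. All log2 differences given here are on the log2(CPM + 1) scale, CDKO minus control, and this one lay above that of 98.1% of the genes tested.

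Slfn9, a long member close in sequence to Slfn8, was measured at 86.2, 85.6 and 87.3 CPM in control and at 170, 156 and 151 CPM in CDKO libraries. The control libraries were nearly level and all CDKO libraries lay well above them. Slfn9 rose 1.84-fold (log2 difference 0.87, SE 0.05, 95% interval 0.76 to 0.99, limma adjusted p = 3.17e-07).

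Slfn8, another long member, was measured at 93.8, 91.2 and 79.03 CPM in control and at 134, 138 and 125 CPM in CDKO libraries. Again no CDKO library reached down to the control range. Slfn8 rose 1.51-fold (log2 difference 0.59, SE 0.07, 95% interval 0.44 to 0.74, limma adjusted p = 2.06e-05).

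Within the long members the measured difference was larger for Slfn5 than for Slfn9, and larger for Slfn9 than for Slfn8. The ratio of Slfn5 to Slfn9 was 0.546 ± 0.0807 in control and 0.878 ± 0.0490 in CDKO libraries (SD, n = 3), with no overlap. The ratio of Slfn9 to Slfn8 was 0.987 ± 0.103 in control and 1.20 ± 0.0688 in CDKO libraries, also with no overlap. For each of these 2 ratios the two-sided exact permutation test on the log2 ratio gave p = 0.1 (0.1 adjusted over the 2 ratios), which is the smallest value that 3 against 3 libraries allow, so these differences between members are not established by a test.

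The intermediate members were expressed at low levels. Slfn3, studied mainly in T cells and gut epithelium, was measured at 1.92, 2.002 and 2.36 CPM in control and at 3.86, 5.40 and 4.42 CPM in CDKO libraries, from 73 to 100 reads in control and 127 to 224 reads in CDKO libraries. The groups did not overlap. Slfn3 rose 2.18-fold (log2 difference 0.84, SE 0.16, 95% interval 0.50 to 1.18, limma adjusted p = 0.000618). Its promoter window has no interferon element core, and the part of that element in the rise of any member was not tested.

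Slfn4, known from monocytes and macrophages and induced there by interferon, was measured at 3.27, 3.54 and 4.60 CPM in control and at 6.76, 3.50 and 8.51 CPM in CDKO libraries. CDKO replicates 1 and 3 lay above all control libraries and CDKO replicate 2 lay inside the control range. Slfn4 did not pass (log2 difference 0.54, SE 0.24, 95% interval 0.00 to 1.07, limma adjusted p = 0.0704). Without CDKO replicate 2 it did (log2 difference 0.85, limma adjusted p = 0.00262), and it also did after quantile normalization (0.70, limma adjusted p = 0.0194), so this call changes with 1 library and with the scaling. Over all alternatives its adjusted p ran from 0.00262 to 0.273.

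Of the short members, only Slfn2 had enough reads for testing. Slfn2, the quiescence factor described above, was measured at 61.3, 53.6 and 52.6 CPM in control and at 42.5, 47.8 and 56.3 CPM in CDKO libraries. The ranges overlapped, since CDKO replicate 3 was higher than control replicates 2 and 3. Slfn2 did not pass (log2 difference -0.20, SE 0.10, 95% interval -0.41 to 0.02, limma adjusted p = 0.102). Without CDKO replicate 3 it passed as lower (log2 difference -0.30, limma adjusted p = 0.0136), so this call too rests on 1 library, and over all alternatives its adjusted p ran from 0.0136 to 0.368.

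Slfn1, the founding member, was close to absent. It had 1 read in control replicate 1, 15 reads in CDKO replicate 3 and 0 reads in the other 4 libraries. No fold and no test is given at this depth. T cells are where Slfn1 was first described, and 8 of the 11 listed T cell markers were found in the table. Cd3e, Cd3g, Cd8a and Bcl11b had 0 reads in all 6 libraries, and Cd3d was at 0.0241 CPM in CDKO replicate 2 and at 0 reads elsewhere. Cd4 was higher, with 0.0256, 0.247 and 0.401 CPM in the control libraries against 2.98, 2.22 and 2.81 CPM in the CDKO ones, and so was Lck, with 16.3 to 19.4 against 27.2 to 27.9 CPM. Cd247 was lower, with 6.06 to 7.51 against 2.06 to 3.38 CPM. The part of T cells in the Slfn1 reads was not tested.

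**Figure D2:**
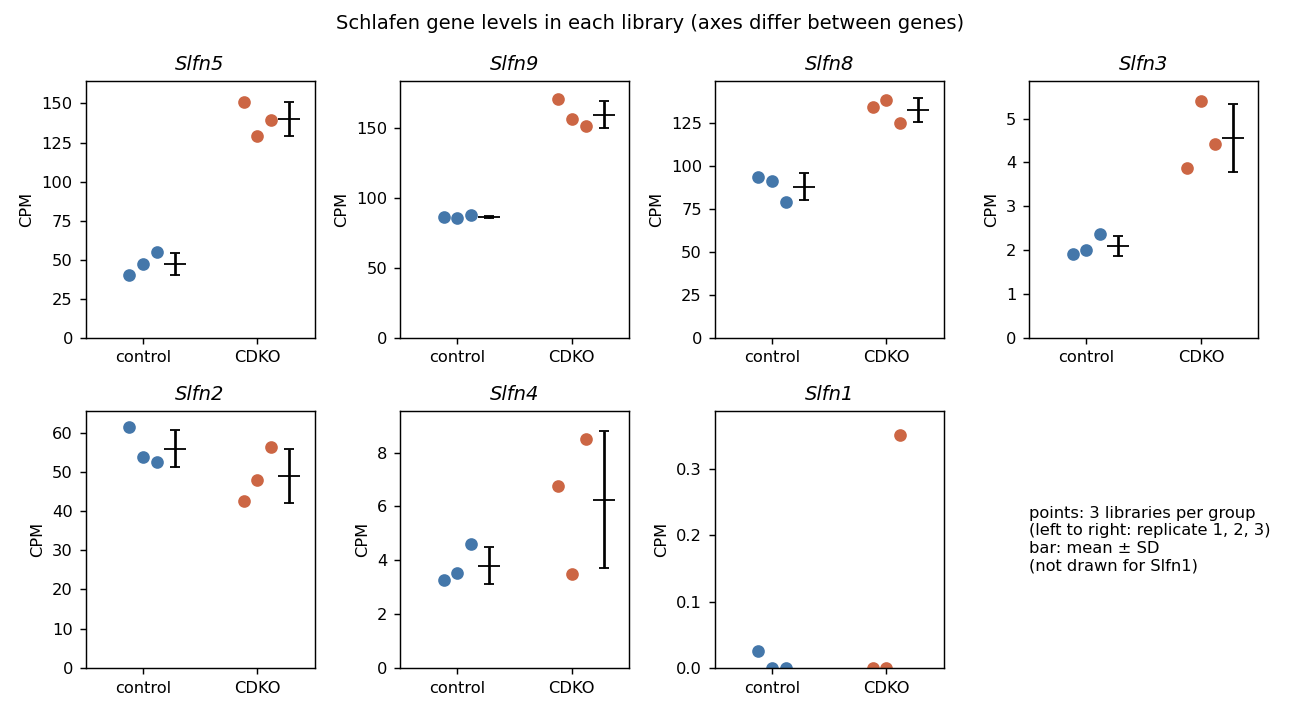
CPM of each member in each of the 6 libraries, with control on the left and CDKO on the right of each panel and a separate vertical axis per gene. Bars give the mean and SD of 3 libraries and are not drawn for Slfn1. The CDKO points of Slfn5, Slfn9, Slfn8 and Slfn3 lie above all control points, those of Slfn2 and Slfn4 overlap them, and Slfn1 is at or below 0.351 CPM in every library.

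Levels can be compared between genes only per length, so CPM was divided by the kb of annotated exon. In control HSC neighbouring members in the order on this scale did not overlap in any library. Slfn2 came first at 33.6 ± 2.87 CPM per kb (SD, n = 3), followed by Slfn8 at 21.5 ± 1.93, Slfn9 at 14.5 ± 0.146 and Slfn5 at 7.46 ± 1.16 CPM per kb. Slfn4 and Slfn3 were far lower, at 0.960 ± 0.178 and 0.614 ± 0.0691 CPM per kb. Before the division Slfn8 and Slfn9 were close, at 88.0 ± 7.90 and 86.4 ± 0.872 CPM. Their order therefore rests on the exon lengths used, 4.091 kb for Slfn8 and 5.965 kb for Slfn9.

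In CDKO HSC the 4 abundant members had moved closer together. Slfn8 stood at 32.4 ± 1.68, Slfn2 at 29.4 ± 4.17, Slfn9 at 26.7 ± 1.65 and Slfn5 at 22.1 ± 1.73 CPM per kb. Slfn2 overlapped both Slfn8 and Slfn9, so its place in the order was not resolved, whereas all CDKO values of Slfn8 lay above those of Slfn9 and all values of Slfn9 above those of Slfn5. Slfn4 at 1.58 ± 0.642 and Slfn3 at 1.34 ± 0.228 CPM per kb overlapped as well. Exon length was taken over all annotated transcripts, so a gene that uses only short ones is understated on this scale. Without the division the order of Slfn8 and Slfn9 was reversed in CDKO libraries, at 133 ± 6.87 and 159 ± 9.83 CPM.

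**Figure D3:**
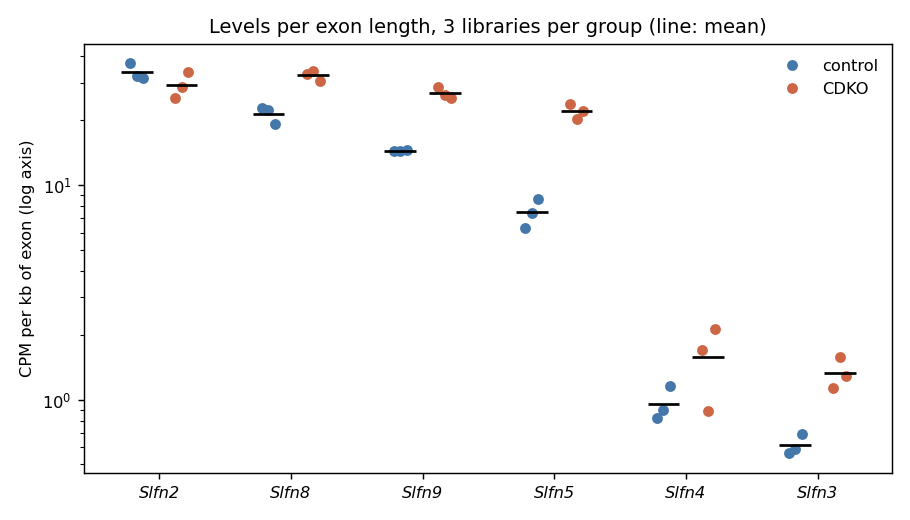
Level per exon length, in CPM per kb on a log axis, of the 6 members that were tested, with 3 control and 3 CDKO libraries each and a line at the mean. Slfn2 is highest in control libraries, and Slfn8, Slfn2, Slfn9 and Slfn5 lie between 20.4 and 33.8 CPM per kb in CDKO libraries.

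Reads of the family as a whole went from 283 ± 2.99 CPM in control to 492 ± 15.1 CPM in CDKO libraries (SD, n = 3), summed over the 7 members. The share of this sum that came from Slfn5 was 16.7 ± 2.76% in control and 28.4 ± 1.44% in CDKO libraries. The share from Slfn2 was 19.7 ± 1.48% in control and 9.97 ± 1.62% in CDKO libraries. Slfn8 and Slfn9 together made up most of the family's reads in both groups, at 31.1 ± 2.51% and 30.5 ± 0.568% in control and 27.0 ± 1.60% and 32.4 ± 1.16% in CDKO libraries.

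Other genes with a Schlafen name lie in or outside the same cluster. Slfn10-ps, a transcribed pseudogene between Slfn8 and Slfn2, was measured at 36.8, 40.04 and 39.4 CPM in control and at 63.8, 59.3 and 53.6 CPM in CDKO libraries and rose (log2 difference 0.59, SE 0.08, limma adjusted p = 4.97e-05). It shares 11.8% of its 50-base stretches with Slfn8 and 13.5% with Slfn9, so its reads are uncertain in the same way as theirs. Slfn14, a long family gene that encodes a ribosome-associated ribonuclease of red cell precursors and platelets, was measured at 2.56, 2.41 and 1.39 CPM in control libraries and had 0 reads in all CDKO libraries. It fell (limma adjusted p = 1.26e-05) and was at least 23.2-fold lower, set against the largest floor of a library (3 reads, 0.0913 CPM). None of its 50-base stretches occurs in another gene.

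Erythroid markers were lower in the same CDKO libraries as Slfn14. Of 6 tested markers 5 fell, and the summed level of the 7 listed was 202 to 224 CPM in control and 43.1 to 49.1 CPM in CDKO libraries, with Hbb-bt at 0 reads in every library. Megakaryocyte markers went the other way, with 5 of 6 higher and a summed level of 392 to 416 CPM in control and 538 to 552 CPM in CDKO libraries. Their part in the result for Slfn14 was not tested. Slfnl1, a Schlafen-like gene on chromosome 4, had 0 reads in control libraries and 14, 7 and 3 reads in the CDKO libraries, too few for testing.

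Genes that flank the cluster changed about as often as genes elsewhere. GENCODE lists 26 protein-coding genes outside the family within 500 kb of the cluster, of which 21 were tested, and 6 rose and 8 fell, where 31.1% of all genes tested rose and 35.2% fell. Their median log2 difference was -0.15, against -0.02 for all genes tested. The nearest 3 tested genes on the Slfn5 side were Unc45b, a myosin chaperone gene, Nle1, a gene of ribosome assembly, and Fndc8. All 3 fell, by 0.39, 0.50 and 0.71 on the log2 scale (limma adjusted p = 0.00402, 0.000257 and 0.00273). On the Slfn14 side Ap2b1, a clathrin adaptor gene, fell by 0.32 (limma adjusted p = 0.00682), while 1700020L24Rik did not pass (limma adjusted p = 0.725). The list genes with the smallest p were Ccl6, Mmp28 and Ccl4, which fell by 1.68, 1.54 and 1.06 on the log2 scale, and Ccl9, which rose by 1.54. Within the cluster, Slfn5, Slfn9, Slfn8 and Slfn10-ps, which lie side by side, rose, as did Slfn3 farther on, with Slfn2 and Slfn4 between them not past the threshold.

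**Figure D4:**
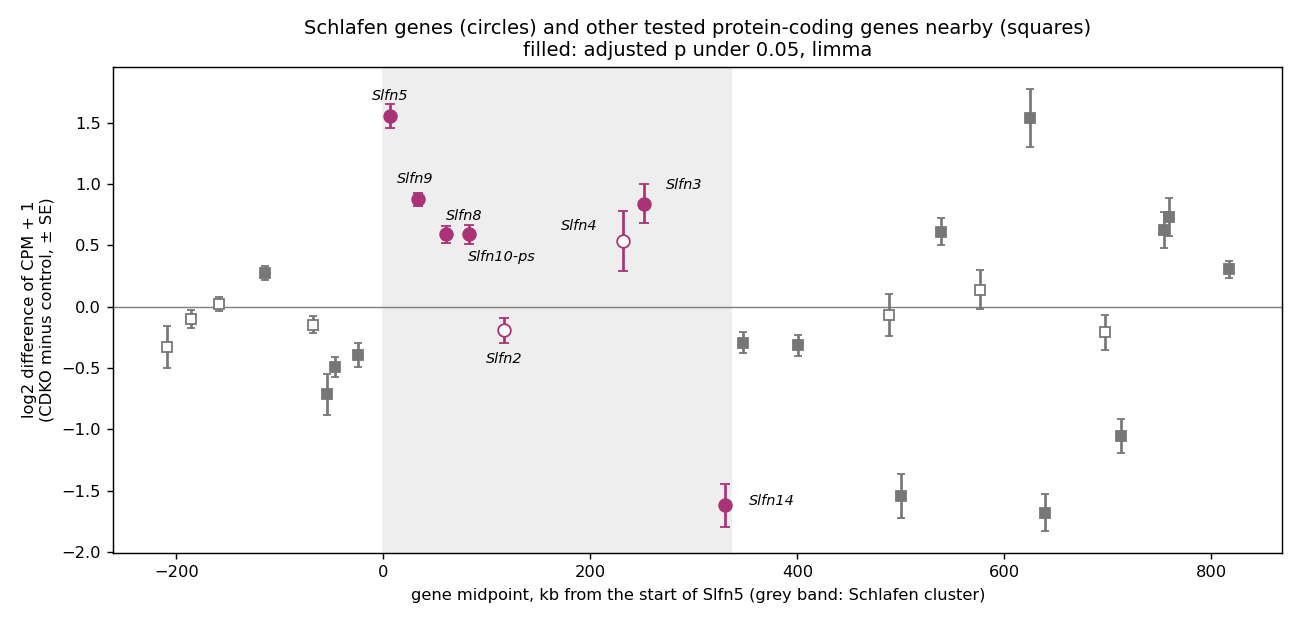
Log2 difference of CPM + 1, CDKO minus control, with its SE, against the distance of each gene's midpoint from the start of Slfn5 in kb. Circles are Schlafen genes, squares are the 21 other tested protein-coding genes, and filled symbols passed the limma threshold. Slfn5, Slfn9, Slfn8 and Slfn10-ps lie between 0.59 and 1.56, and Unc45b, Nle1, Fndc8 and Ap2b1, outside the grey cluster, lie below 0.

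Interferon response genes were mostly higher in the same libraries. Of 49 tested genes of this list, which holds no Schlafen gene, 40 rose and 1 fell, a share of 81.6% higher against 31.1% for all genes tested, and the median log2 difference was 0.83. Irf7, a master regulator of interferon genes, Oas2, a sensor of double-stranded RNA, and the antiviral genes Ifit3 and Ifit1 had the smallest p of the list, with log2 differences of 2.16, 2.26, 3.20 and 2.25. Slfn5, at 1.56, was the only member above 1 on this log2(CPM + 1) scale. The added 1 lowers the difference of a gene with few reads such as Slfn3. It stood at 0.84 on this scale but rose 2.18-fold in mean CPM, and edgeR on the reads gave it a log2 difference of 1.14. The receptor genes Ifnar1, with 108 ± 7.26 CPM in the control libraries against 114 ± 3.32 CPM in the CDKO ones, and Ifnar2, with 139 ± 4.71 and 144 ± 1.15 CPM, did not pass. Jak1, a kinase of the receptor, was the 1 that fell. It stood at 866 ± 21.9 CPM in control libraries and 598 ± 3.45 CPM in CDKO libraries (limma adjusted p = 7.13e-07). Without control replicate 2 Irf3 was lower too (limma adjusted p = 0.0258).

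**Figure D5:**
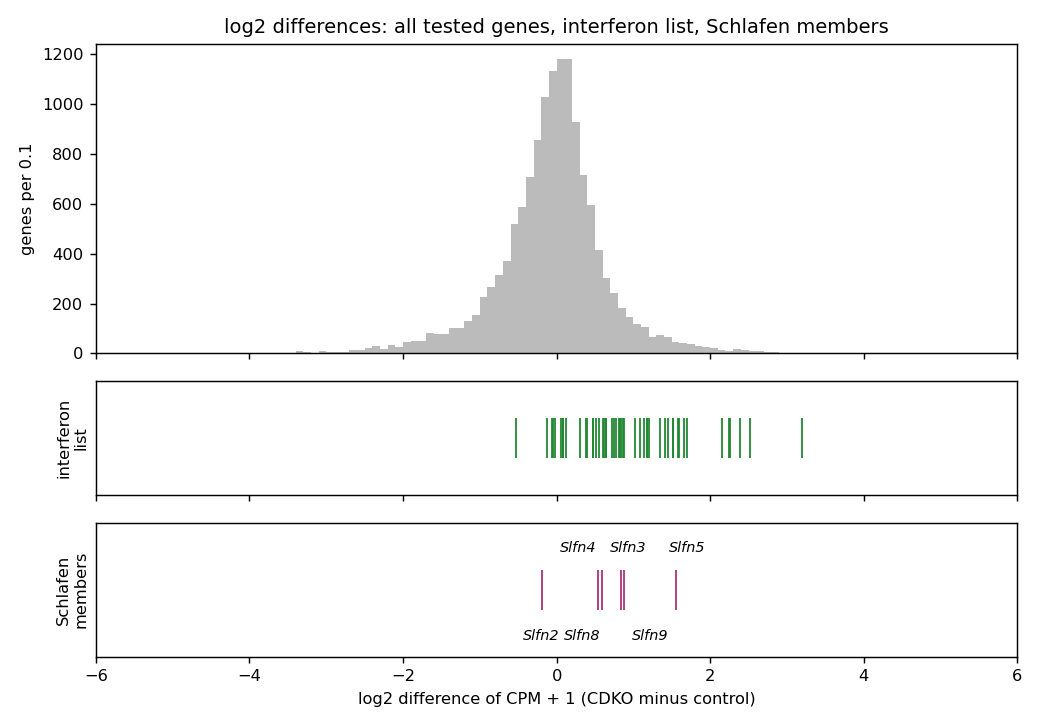
Log2 differences of CPM + 1, CDKO minus control, on a shared horizontal axis, with all 13734 tested genes as a histogram in the upper panel, the 49 interferon response genes as ticks in the middle panel and the 6 tested members as ticks in the lower panel. Slfn5 lies among the upper part of the interferon ticks, and Slfn2, at -0.20, lies below 0.

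Genes tied to the family's known roles changed about as often as other genes. Of 17 tested genes of quiescence and growth arrest 6 rose and 7 fell, near the 31.1% and 35.2% of all genes tested, with a median log2 difference of -0.15 against -0.02. Tsc1, a brake on growth signalling whose loss takes T cells and HSC out of quiescence, stood at 56.9 ± 2.36 CPM in control libraries and fell to 27.3 ± 1.19 CPM (limma adjusted p = 7.13e-07). Tob2, an antiproliferative gene, fell from 122 ± 5.67 to 84.6 ± 3.43 CPM. Cdkn1a, an inhibitor of cyclin-dependent kinases, rose from 2.85 ± 0.723 to 16.5 ± 1.70 CPM, and Klf4 rose from 1.07 ± 0.276 to 4.20 ± 0.0778 CPM.

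Of 12 tested genes of transfer RNA cleavage and processing 4 rose and 3 fell, with a median log2 difference of -0.08, and these counts too lie near the 31.1% and 35.2% of all genes tested. Trdmt1, a methyltransferase that protects transfer RNA, stood at 22.1 ± 1.45 CPM in control libraries and fell to 10.8 ± 0.951 CPM (limma adjusted p = 1.98e-05). Tsen54, a subunit of the splicing endonuclease, fell from 80.2 ± 3.35 to 51.4 ± 4.70 CPM, and Elac2, which trims the 3′ ends, fell from 50.3 ± 6.05 to 34.7 ± 7.01 CPM. Trnt1, which adds the terminal CCA, rose from 45.2 ± 2.86 to 54.3 ± 2.64 CPM. Ang, the gene of the nuclease from which Slfn2 protects transfer RNA, was low in both groups, with 0.997 ± 0.0802 CPM in control and 0.793 ± 0.361 CPM in CDKO libraries, and did not pass (limma adjusted p = 0.391).

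For each member that passed, the 2 genes outside the family with the most similar profile were taken by Pearson correlation of log2(CPM + 1) over the 6 libraries, as a description. They were Sox12 (r = 0.9997) and Trmt12 (r = 0.9992) for Slfn5, and Lgals3bp (r = 0.9998) and Alpk2 (r = 0.9996) for Slfn9. Lgals3bp, a secreted glycoprotein gene, averaged 367 ± 4.92 CPM in control and 694 ± 44.5 CPM in CDKO libraries, and Alpk2 had 0 reads in control libraries and 0.977 ± 0.130 CPM in CDKO libraries. For Slfn8 they were Dpagt1 (r = 0.9986) and Ide (r = 0.9985), and for Slfn3 they were Rer1 (r = 0.9969) and Eya3 (r = 0.9966). Over 6 libraries in 2 groups such values mostly carry the group difference, which 9097 of the 13734 tested genes share.

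Markers of other blood cells also differed between the groups. All 10 neutrophil markers fell, with a summed level of 863 to 1092 CPM in control and 112 to 177 CPM in CDKO libraries, and none was at 0 in every library. Monocyte and macrophage markers had 2 of 9 tested genes higher and 6 lower, and summed to 317 to 354 CPM in the control libraries against 233 to 264 CPM in the CDKO ones. T cell markers summed to 24.1 to 25.95 CPM in control and 32.1 to 33.6 CPM in CDKO libraries (2 of 3 tested higher, 1 lower), natural killer cell markers to 14.3 to 17.5 and 31.1 to 39.1 CPM (3 of 5 higher), and B cell markers to 46.6 to 55.96 and 57.7 to 61.4 CPM (1 of 5 higher, 2 lower), with Ms4a1 and Pax5 at 0 reads throughout. Dendritic cell markers summed to 141 to 178 and 91.2 to 118 CPM (5 of 6 lower), and basophil and mast cell markers to 689 to 729 and 455 to 479 CPM (5 of 6 lower). The part of these cells in the Schlafen results was not tested.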

How the data were processed

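RNA from sorted mouse HSC was sequenced in 6 libraries, 3 control and 3 CDKO. Per the labels, RNA was amplified with a SMARTer ultra low input kit and made into Nextera XT libraries. The submitters' processing notes name TopHat2, HTSeq, DESeq2 and the build mm10. The annotation, versions and read length are not given in the sources used here. The deposited values per library are CPM of the library total. They were turned back into whole reads (100.0000% of values above 0 within 0.01 of a read). The deposited baseMean, a signal scaled by size factors, and the stat column, a score, were not used. The authors' log2 fold change and adjusted p-value columns set control over CDKO. They were used only for the counts and values credited to the authors, with the sign turned to CDKO minus control.

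Genes with a mean of at least 10 reads (0.255 CPM at mean depth) were tested with limma 3.58.1 (R 4.3.3) on log2(CPM + 1), eBayes with trend, two-sided, Benjamini-Hochberg adjusted p under 0.05. The lists and members were chosen with earlier results of these data known. Of the table's rows 12 carry dates in place of symbols and were left out. A RefSeq synonym was used for 3 listed symbols (2 interferon response genes, 1 macrophage marker). The marker lists cover 10 blood cell types. Errors are SD over 3 libraries or the limma SE. The series text says that each library is a separate pool of mice. Sequences are from RefSeq promoter windows (GRCm38.p6). Gene models and transcripts are from GENCODE M21 (GRCm38, the assembly called mm10), aligned with Biopython 1.88. Named genes are the members, other Schlafen genes, Nr4a1 and Nr4a3, up to 4 genes of each list with the smallest p, genes that moved against a list, the nearest 3 tested genes on each side of the cluster and the most similar profiles. Of these, 1 gene is not reported here. The genes Ifnar1, Ifnar2, Irf3 and Ang were named after their values were seen. Alternatives were the replicate number as a block, each library left out, no filter, a filter of 50 reads, quantile normalization, TMM, a pseudocount of 0.5 or 5, the count tests of edgeR 4.0.16 and DESeq2 1.42.0, and, added after seeing the data, the block together with edgeR. The tests were also run on simulated data with far fewer changed genes than pass here. That run does not check them at such a share of changed genes.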

Additional observations from a re-analysis of the deposited data

How the results depend on the processing

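Under 16 alternatives Slfn3, Slfn5, Slfn8 and Slfn9 stayed past the threshold in the same direction, with log2 differences of 0.43 to 1.14, 1.44 to 1.66, 0.51 to 0.64 and 0.83 to 0.91. Slfn4 passed with quantile normalization (0.70) and in the fit with a replicate block (0.54, limma adjusted p = 0.0254), though not with the block in edgeR (0.66, adjusted p = 0.0774). Leaving out 1 library at a time, its difference ran from 0.31 to 0.85, that of Slfn2 from -0.30 to -0.10, and the interferon genes called lower numbered 1 or 2. The block changed no other call of a member. Libraries of the same number had correlations of deviations of 0.0518, 0.0483 and -0.012. Control replicates 1 and 2 correlated best with their own number and control replicate 3 did not. All these correlations were small, so they do not settle whether the numbers pair the libraries. In all, 330 of 335 recomputed values kept their direction and side of the threshold, or stayed within 1.5 times for counts. Slfn14 has no value with the filter of 50 reads. Depth limits Slfn1, and the low counts of Slfn3 and Slfn4 limit their precision.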
